A study of Mus musculus with 20 samples.

Results

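The genes described here are 40 imprinted genes, named in a list and looked up by symbol in the count table of 20 mouse breast tumors. They were found in 41 of the 43346 gene records of the table, since Snrpn is listed under 2 overlapping records. A record was taken as a member by its gene name alone, and the list was chosen with earlier results of these data known. In 27 of the 40 genes the mean log2(RPKM + 1) over the tumors was at least 0.5, the level at which a gene is called expressed here, and 35 genes (36 records) had enough counts to be tested.

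An imprinted gene is expressed mainly or only from the copy inherited from one parent, because a mark set in the egg or sperm, usually DNA methylation of a control region, is kept in the cells of the offspring. Imprinted genes lie in clusters in which a few genes expressed from the maternal copy and a few expressed from the paternal copy share 1 control region, and most clusters also hold a long noncoding RNA. Many act on growth before birth, and expression of a number of them falls after birth. In this list 20 genes are known for expression from the maternal copy and 20 from the paternal copy, which is background here, since the counts add both copies.

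Each tumor came from a different female F1 mouse, up to 20 weeks old, whose mother was wildtype FVB/J and whose father was a BALB/c male hemizygous for the neuT transgene, an activated rat Her2/neu oncogene. All 20 mice therefore carried the transgene from the father, the tumors arose spontaneously, and no tissue without a tumor and no reciprocal cross was analysed here. RNA was made from a small frozen piece of each tumor, so that all cell types of the piece were sequenced together, and fewer cells of a type and less RNA per cell cannot be told apart. Sample names carry Lo in 9 tumors and Hi in 11, and the meaning of these words is not given in the sources used here.

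Between 38765682 and 65465755 reads were counted on genes in a tumor. The ribosomal RNA locus held between 6.3% of them in Lo 1 and 27.7% in Lo 6, and it was kept in the totals used for scaling. A set of 8 epithelial genes was at a summed 1507 to 2407 RPKM (reads per kilobase of the listed gene length, scaled to the total count), and all 8 were expressed. In contrast, 8 skeletal muscle genes ranged from a summed 1.08 RPKM in tumor Hi 4 to 543.7 RPKM in tumor Hi 6. The summed level of 8 fibroblast genes was between 75.1 RPKM in Lo 3 and 259.2 RPKM in Lo 4. That of 5 RNAs listed here as nuclear-retained (Malat1, Xist, Neat1, Gas5 and Snhg11) was between 257.6 RPKM in Hi 7 and 787.8 RPKM in Hi 4. Malat1, at a mean of 346.6 RPKM, made up the largest part of that sum on average, before Xist at 72.8 RPKM. The correlation of log2 CPM between 2 tumors was between 0.962 and 0.989. The p-values below measure the spread between these tumors.

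Of the 20 genes known for maternal expression, 15 were expressed in the tumors, and of the 20 known for paternal expression, 12 were. The genes with the highest level per length were Gnas, which encodes the stimulatory G protein alpha subunit, at 55.1 ± 7.47 RPKM (SD, n = 20), Igf2r, the receptor that takes up and degrades the growth factor Igf2, at 50.2 ± 7.70 RPKM, and Peg3, a zinc finger factor, at 46.9 ± 8.71 RPKM. The ranges of these 3 genes over the tumors overlapped. A record on the other strand inside Gnas, Gm20721, had a mean of 407.5 RPKM. How reads were shared between it and the Gnas record was not tested. H13, a signal peptide peptidase, followed at 18.3 ± 3.19 RPKM, Copg2, a coatomer subunit of vesicle transport, at 15.6 ± 1.77 RPKM, and Grb10, an adaptor that inhibits insulin and IGF receptors, at 10.9 ± 1.30 RPKM. No other gene of the list reached a mean of 10 RPKM.

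At the other end were 5 genes too low to be tested. Igf2, the fetal growth factor that Igf2r binds, had between 0 and 32 counts per tumor, a mean of 0.0370 RPKM, and 1 tumor without a count. Magel2, a MAGE family gene, had 0 counts in all 20 tumors, where 3 counts, the limit that a count of 0 allows, would be 0.00983 to 0.0166 RPKM. Usp29, a ubiquitin-specific protease, had no count in 16 tumors and at most 4 in any tumor. The record of Usp29 in the table covers only Chr7:6961160-6963769. Asb4, an ankyrin repeat protein, had 1 to 29 counts, and Ddc, the decarboxylase that makes dopamine and serotonin, 1 to 13 counts. Another 8 genes (Dlk1, Mirg, Ascl2, Ppp1r9a, Peg10, Zim1, Rasgrf1 and Mkrn3) could be tested but were not called expressed.

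**Figure D1:**
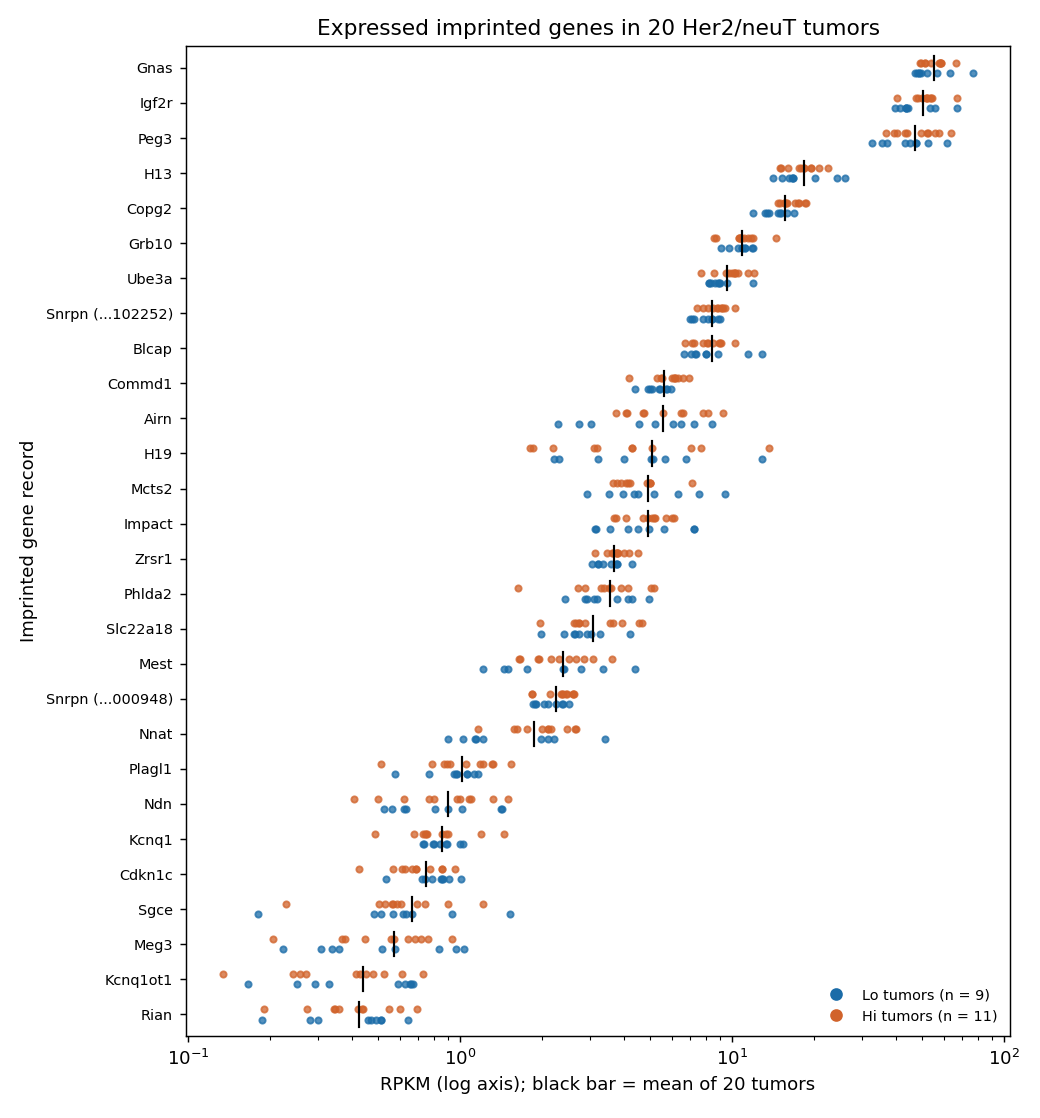
RPKM (log axis) of the 28 expressed records of imprinted genes, 1 point per tumor (Lo blue, n = 9, Hi orange, n = 11), black bars being means over the 20 tumors. Gnas, Igf2r and Peg3 lie between 32.7 and 76.9 RPKM in every tumor, while H19 runs from 1.80 to 13.6 RPKM and Sgce from 0.181 to 1.53 RPKM.

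The spread between tumors was measured as the SD of log2 CPM (counts scaled to the total with TMM factors) over the 20 tumors. Its median was 0.34 over the expressed records of imprinted genes and 0.22 over all expressed and tested genes. Among the 36 tested records, which include low ones not called expressed, 14 had an SD above 0.5, and 20.01% of all 18883 tested genes did. Among the 28 expressed records 6 did. These figures describe the list, and genes of matched level were not compared. The 6 long noncoding RNAs of the list (H19, Airn, Meg3, Rian, Mirg and Kcnq1ot1) had a median SD of 0.67, 5 of them above 0.5, and the 30 tested protein-coding records a median of 0.35, with 9 above 0.5. Copg2 varied least, with an SD of 0.13 and 1.46-fold between the lowest and the highest tumor. For Mirg, Ascl2, Peg10 and Rasgrf1, each with a coefficient of variation over 50%, counting error alone would give 22.1%, 22.4%, 24.0% and 21.3%.

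Co-variation was measured by fitting, with edgeR, the counts of every other tested gene on the log2 CPM of 1 imprinted gene, so that a slope is the log2 change per SD of that gene between tumors and each p is adjusted over all 18882 other genes. The gene with the highest mean count served for each of 10 clusters with at least 2 tested genes. Of 20 neighboring records in those clusters, 1 was called at an adjusted p under 0.05, Mirg with Meg3. The share of all genes called in these 10 fits is the background for that count, and it was 0.0212% with Meg3, 0% with Igf2r and with Copg2, 0.254% with Blcap, 0.8% with Sgce, 1.81% with H13, 2.96% with Ube3a, 3.36% with Commd1, 5.79% with Peg3 and 10.3% with Kcnq1ot1. With every tested record used in turn, the 40 pairs within clusters had a median r of 0.15 and the 590 pairs between clusters a median r of -0.01. These fits were added after the first fits had been seen, and p-values were not adjusted across the 36 fits.

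**Figure D2:**
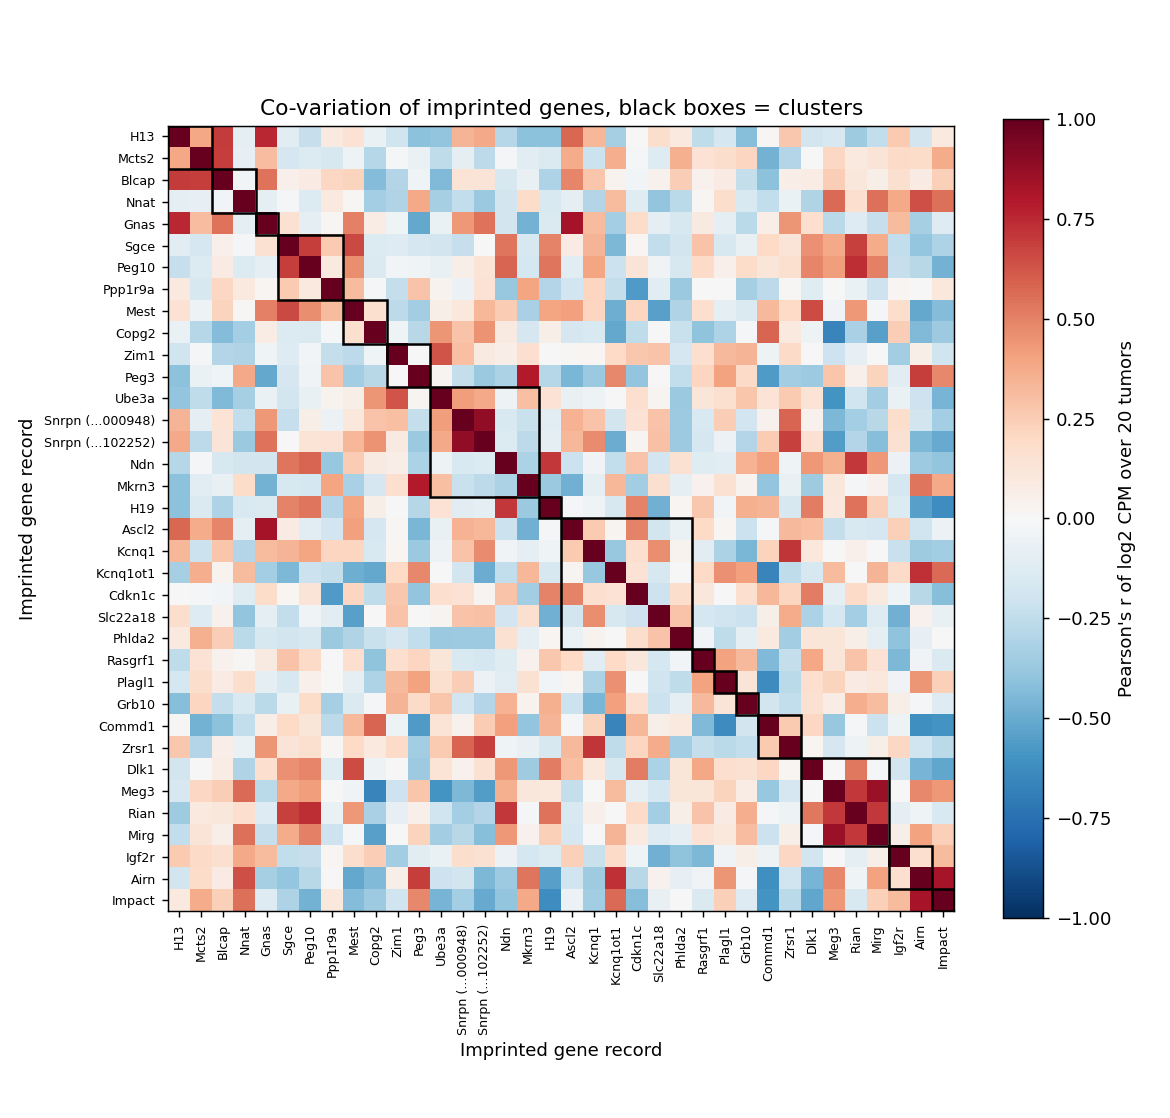
Pearson's r of log2 CPM over 20 tumors between the 36 tested records of imprinted genes, red being positive and blue negative, with clusters boxed in black. Within the boxes r runs from -0.38 to 0.89, where 0.89 is that of the 2 overlapping records of Snrpn, and Meg3, Rian and Mirg form a block with r of 0.71 to 0.86.

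The Dlk1-Meg3 cluster on Chr12 gave the pair that was called. It holds Dlk1, a Notch-like membrane protein that restrains fat cell formation and is known for paternal expression, and 3 noncoding RNAs known for maternal expression, Meg3, Rian, which hosts small nucleolar RNAs, and Mirg, which hosts microRNAs. Meg3 (109541001 to 109571726, mm10) was between 4.38 and 16.4 CPM in Lo tumors, with a median of 9.04 CPM, and between 3.74 and 15.7 CPM in Hi tumors, with a median of 10.5 CPM. Mirg (109729764 to 109749460), which starts 188763 bases farther on, was between 0.227 and 1.05 CPM in Lo tumors (median 0.407) and between 0.227 and 1.16 CPM in Hi tumors (median 0.537), from 11 to 57 counts in a tumor. The same tumors were high and low for both: Hi 11 and Lo 3 were the lowest for each, and the tumors above 11 CPM of Meg3 were all above 0.53 CPM of Mirg.

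Mirg rose by 0.70 on the log2 scale per SD of Meg3 (SE 0.102, adjusted p = 0.00601 from edgeR), and Meg3 with Mirg as the covariate had an adjusted p of 0.00452. Pearson's r of their log2 CPM was 0.863 and Spearman's rho 0.884 (permutation p = 1e-05 for both, the smallest that these permutations can give). Without Hi 11 and Lo 3 r was 0.854, and it was 0.878 within Lo tumors and 0.853 within Hi tumors. The adjusted p was 0.0596 in the fit without Hi 11 and Lo 3, 0.482 in Lo tumors alone and 0.646 in Hi tumors alone, with slopes of 0.65, 0.73 and 0.72. Mirg ranked second among all tested genes by r with Meg3. With Mirg as the covariate 0.0053% of all genes were called, a single gene, which was Meg3.

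Rian lies between the other 2 noncoding RNAs (109603940 to 109661716) and was between 3.53 and 12.4 CPM in Lo tumors (median 8.33) and between 3.36 and 11.3 CPM in Hi tumors (median 7.16). Its r with Meg3 was 0.710 (permutation p = 0.00055, rho 0.630 with permutation p = 0.00349), with an adjusted p of 0.0953 when Meg3 was the covariate and 0.0417 when Rian was. Without Hi 11 and Lo 3 this r was 0.486, and it was 0.470 within Lo tumors and 0.956 within Hi tumors. Lo 4 and Lo 6 lay apart, with high Rian and low Meg3, and Lo 4 was also the tumor with the highest fibroblast genes. With Rian as the covariate 0.477% of all genes were called, among them 4 of the 8 fibroblast genes (Col3a1, Col1a1, Col1a2 and Fap) and 1 of the 8 endothelial genes, all higher. Their part in the Rian result was not tested. None of these 4 fibroblast genes was called once the 2 tumors most distant from the Rian median, Hi 11 and Lo 3, were removed. With the fibroblast genes' mean z-score added to the Meg3 fit, the slope of Rian was 0.23, against 0.35 without it, and its adjusted p 0.0248, in a fit that called 13.1% of all genes.

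For Dlk1, at 18 to 90 counts in a tumor, no relation with Meg3 was detected, and r was 0.0015 (permutation p = 0.995, rho -0.14 with permutation p = 0.563), -0.29 without Hi 11 and Lo 3, -0.14 within Lo tumors and 0.165 within Hi tumors, with an adjusted p of 0.970. Its r with Rian was 0.528 (permutation p = 0.0169, rho 0.453 with permutation p = 0.0462), 0.537 without the 2 farthest tumors, 0.699 within Lo tumors and 0.323 within Hi tumors, with an adjusted p of 0.742. Genes with a mean of at least 1 CPM, which leaves out Mirg, were ranked by r with Meg3 over 20 tumors. The nearest of these 15390 genes was Gm26906 (r = 0.888), a record on the other strand inside the Meg3 locus, followed by Prr33 (0.861) and Flt3l (0.796). How reads were shared between Gm26906 and Meg3 was not tested.

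**Figure D3:**
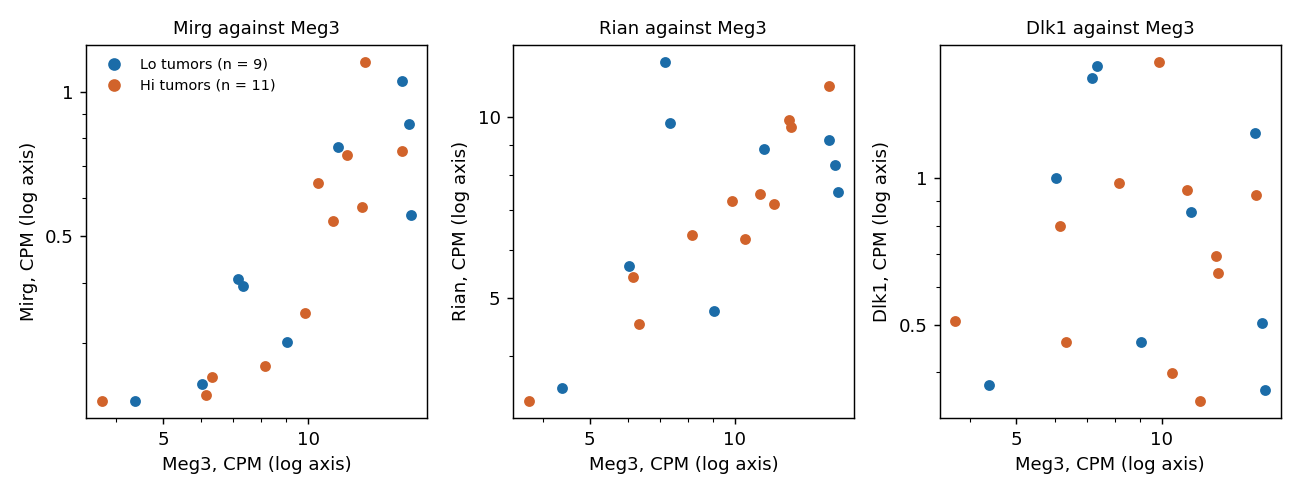
CPM (log axes) of Mirg, Rian and Dlk1 against CPM of Meg3, 1 point per tumor (Lo blue, Hi orange). Mirg follows Meg3 over the whole range (r = 0.863), 2 Lo tumors leave the Rian trend, and the Dlk1 points are scattered (r = 0.0015).

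The pairwise r of these 3 noncoding RNAs was the highest among different genes of the cluster. The windows around their RefSeq starts, which differ in CG content, are therefore shown. They are RefSeq windows of 300 bases around a start, on the plus strand of GRCm38.p6, found for 34 of the 40 genes, and capitals mark CG, the dinucleotide at which mouse DNA is methylated. CG was counted as the letters CG, which read the same on both strands, and 94.6% of all 32851 windows hold at least 1. Meg3 (chr12:109540746-109541045) holds 13, Mirg (chr12:109734731-109735030) holds 10 and Rian (chr12:109603695-109603994) holds none. RefSeq lists a further Meg3 window (chr12:109545148-109545447), not printed here, with 1 CG and no TATAAA. The median was 7 over all windows and 14 over the 51 windows of the imprinted genes. The motif TATAAA, on either strand, occurs in the first Meg3 window and not in those of Rian and Mirg, and in 13.6% of all windows. RefSeq's start of Mirg lies inside the record of the table, which starts at 109729764, so the Mirg window does not show the start of the counted record.
Meg3: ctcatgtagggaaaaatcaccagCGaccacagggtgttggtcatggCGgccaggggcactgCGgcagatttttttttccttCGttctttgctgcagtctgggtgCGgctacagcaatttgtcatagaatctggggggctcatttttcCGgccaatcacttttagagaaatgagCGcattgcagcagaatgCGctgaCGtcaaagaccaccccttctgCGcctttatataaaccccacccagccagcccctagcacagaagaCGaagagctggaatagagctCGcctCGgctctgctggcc
Rian: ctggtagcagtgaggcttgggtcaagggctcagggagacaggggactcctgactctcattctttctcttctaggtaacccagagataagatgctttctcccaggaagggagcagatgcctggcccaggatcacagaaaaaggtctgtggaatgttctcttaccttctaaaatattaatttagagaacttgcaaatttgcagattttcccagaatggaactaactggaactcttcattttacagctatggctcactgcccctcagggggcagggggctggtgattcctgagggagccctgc
Mirg: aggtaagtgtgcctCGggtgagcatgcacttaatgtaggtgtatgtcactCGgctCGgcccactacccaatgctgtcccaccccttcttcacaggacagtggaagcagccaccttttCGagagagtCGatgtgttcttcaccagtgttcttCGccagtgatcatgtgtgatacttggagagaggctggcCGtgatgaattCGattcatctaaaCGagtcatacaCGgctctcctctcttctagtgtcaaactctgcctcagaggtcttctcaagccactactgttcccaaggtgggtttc

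Mature microRNAs encoded inside these records carry what the host RNAs are known for. RefSeq (GRCm38.p6) places 41 mature microRNAs on the same strand inside 6 records of the list, 26 of them in Mirg, 6 in Rian, 3 in Meg3 and 2 each in H19, Mest and Igf2. The microRNAs themselves were not measured here. The 26 of Mirg have 25 different seeds (bases 2 to 8, in capitals), and the pair with a shared seed, from separate hairpins, is shown with 1 arm from Rian and both arms from Meg3 and H19.
miR-453 (Mirg): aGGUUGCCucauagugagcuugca
miR-496a-5p (Mirg): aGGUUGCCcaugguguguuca
miR-370-3p (Rian): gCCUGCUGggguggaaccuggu
miR-770-5p (Meg3): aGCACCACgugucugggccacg
miR-770-3p (Meg3): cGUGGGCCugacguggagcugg
miR-675-5p (H19): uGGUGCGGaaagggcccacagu
miR-675-3p (H19): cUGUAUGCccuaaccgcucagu

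H19, the noncoding RNA that hosts miR-675, had the widest spread of the list, an SD of 0.88 that exceeded that of 96.2% of tested genes. It was between 4.59 and 33.5 CPM in Lo tumors (median 11.6) and between 4.25 and 32.7 CPM in Hi tumors (median 9.12). The highest tumors, Lo 4 and Hi 6, stood apart from the next, Lo 2 at 17.8 CPM, and they were also the highest for skeletal muscle genes, at a summed 294.0 and 543.7 RPKM. All 5 tumors below 5.5 CPM of H19 were below 3 RPKM of summed muscle genes. With H19 as the covariate 0.869% of all genes were called, among them 8 of the 8 muscle genes, all higher. The largest slope was that of Myh4, a fast myosin heavy chain, at 3.26 per SD of H19 (SE 0.356, adjusted p = 2.47e-06 from edgeR), and that of Ckm, muscle creatine kinase, was 2.70 (SE 0.265, adjusted p = 8.26e-07). All 8 were also called without Lo 4 and Hi 6, within Lo tumors and within Hi tumors, while 65 genes in all (0.344%) were called within either group.

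The part of muscle cells in the H19 result was not tested beyond these values. With the muscle genes' mean z-score as a further term, 2 genes were called with H19, against 164 without it. Of 13 tested genes of the IGF system, 1 was called with H19 and higher, Igf1, at a slope of 0.39 (SE 0.0719, adjusted p = 0.00460). Of the 8 fibroblast genes 1 was called, Col3a1, at a slope of 0.41. Igf2, the neighbor of H19 in the same cluster, was too low to be fitted, and its highest tumor, Lo 4, held 32 counts.

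**Figure D4:**
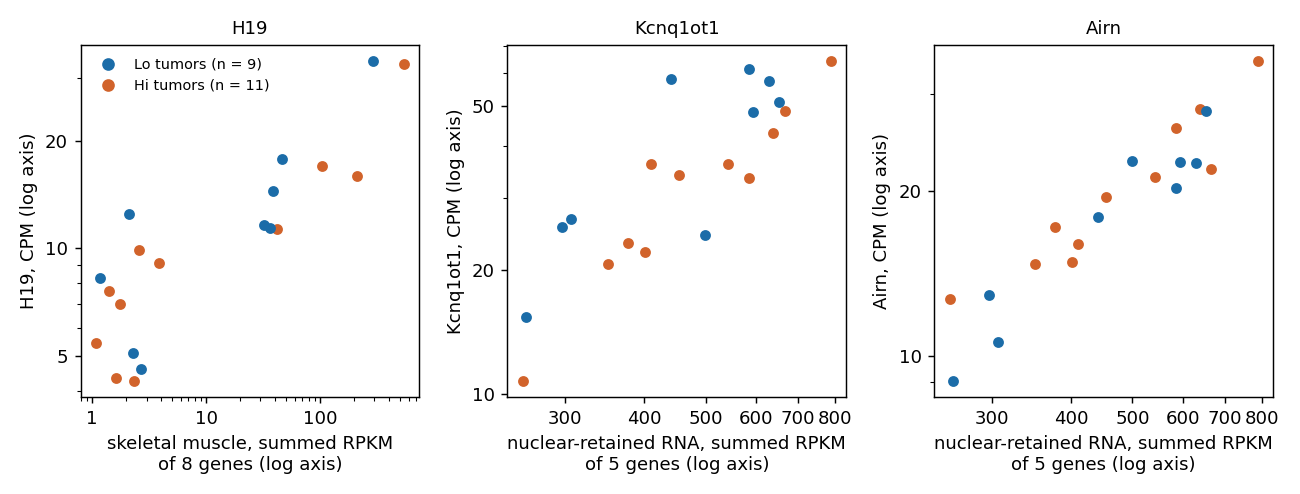
CPM (log axis) of H19 against the summed RPKM of 8 skeletal muscle genes, and of Kcnq1ot1 and Airn against the summed RPKM of 5 nuclear-retained RNAs (log axes), 1 point per tumor (Lo blue, Hi orange). Lo 4 and Hi 6 are highest for H19 and for muscle genes, and Hi 4 is highest for Kcnq1ot1, Airn and the nuclear-retained RNAs.

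In the Igf2r-Airn cluster on Chr17 the receptor gene and the noncoding RNA that runs antisense to it behaved differently. Igf2r (12682406 to 12769664) was between 401.1 and 588.8 CPM in Lo tumors (median 449.1) and between 387.2 and 606.1 CPM in Hi tumors (median 476.4), a 1.56-fold range. Airn, whose record (12741311 to 12860122) overlaps the start of Igf2r on the other strand, was between 9.02 and 28.0 CPM in Lo tumors (median 20.2) and between 12.7 and 34.5 CPM in Hi tumors (median 19.5), a 3.83-fold range. Strand use in counting is not stated in the sources used here, so reads of overlapping genes on opposite strands cannot be told apart, which holds for 18 of the 41 records. No relation between them was detected: r was 0.165 (permutation p = 0.488, rho 0.0346 with permutation p = 0.888), 0.126 without Hi 1 and Lo 8, 0.286 within Lo tumors and 0.0051 within Hi tumors, with an adjusted p of 0.963. The genes nearest to Igf2r in pattern were Gpc4 (r = 0.803), Eaf2 (0.753) and Evc (0.747).

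The genes called with Airn were many, 14.8% of all genes, so that the 6 of 35 other imprinted records called (4 higher and 2 lower, 17.1%) are near the background. Among them were nuclear-retained RNAs: 3 of 5 were called and higher, with slopes of 0.53 for Neat1 (SE 0.0582), 0.42 for Malat1 (SE 0.0607) and 0.31 for Xist (SE 0.0466) per SD of Airn. Of 13 tested genes that set, read, keep or erase imprints, 5 were called and higher (Ctcfl, Setdb1, Tet2, Tet3 and Zfp57), with slopes of 0.10 to 0.39. The part of nuclear RNA in the Airn result was not tested beyond these values. With the mean z-score of the nuclear-retained RNAs as a further term, no gene was called with Airn by edgeR, though the slope of Impact, described with the pairs between clusters, was larger than without it.

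Kcnq1ot1, the noncoding RNA antisense to the potassium channel gene Kcnq1 on Chr7, showed the same kind of profile. It was between 15.4 and 61.6 CPM in Lo tumors (median 48.5) and between 10.8 and 64.4 CPM in Hi tumors (median 34.1). Hi 7 and Lo 4 were the lowest and Hi 4 the highest. Malat1 was among the 3 genes nearest to it in pattern (r = 0.939), with Gm15941 (0.940) and Gm17132 (0.935). With Kcnq1ot1 as the covariate 10.3% of all genes were called. Malat1 rose by 0.48 per SD of Kcnq1ot1 (SE 0.0435, adjusted p = 1.62e-06 from edgeR), and 3 of the 5 nuclear-retained RNAs were called, all higher. Without Hi 7 and Lo 4 these were 2 of 5, where 2.38% of all genes were called. Within Lo tumors they were 1 of 5, where 10 genes (0.053%) were called in all. Of the 13 genes that set, read, keep or erase imprints 4 were called and higher, among them the DNA demethylases Tet2 (slope 0.21, SE 0.0357) and Tet3 (slope 0.15, SE 0.0248).

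None of the 5 other tested genes of the Kcnq1 cluster was called with Kcnq1ot1. All 5 are known for maternal expression, and they are Kcnq1, the cyclin-dependent kinase inhibitor gene Cdkn1c, the placental growth restrainer Phlda2, the transporter-like gene Slc22a18 and the transcription factor gene Ascl2. The largest slope in size was that of Kcnq1, at -0.14 (SE 0.0721, adjusted p = 0.211). Its r was -0.38 (permutation p = 0.0994, rho -0.38 with permutation p = 0.0957), -0.28 without Hi 7 and Lo 4, -0.24 within Lo tumors and -0.55 within Hi tumors. The other slopes lay between -0.06 and 0.09, with adjusted p between 0.660 and 0.970. Mean levels were 3.55 RPKM for Phlda2, 3.09 for Slc22a18, 0.856 for Kcnq1, 0.751 for Cdkn1c, 0.440 for Kcnq1ot1 and 0.349 for Ascl2.

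Ascl2, from 6 to 92 counts in a tumor, had the widest range of these, from 0.119 CPM in Hi 3 to 1.79 CPM in Lo 8. It was paired with a gene of another cluster, Gnas on Chr2. Gnas was between 537.5 and 797.0 CPM in Lo tumors (median 590.2) and between 521.3 and 703.8 CPM in Hi tumors (median 601.6). Lo 8 and Lo 11 were the highest tumors for both genes. Ascl2 rose by 0.66 per SD of Gnas (SE 0.102, adjusted p = 0.00276 from edgeR, 0.0151 with Ascl2 as the covariate), where 1.94% of all genes were called with Gnas and 1.02% with Ascl2. Their r was 0.829 (permutation p = 2e-05, rho 0.708 with permutation p = 0.00081), 0.663 without Lo 8 and Lo 11, 0.820 within Lo tumors and 0.869 within Hi tumors. The pair was no longer called in both directions once the 2 tumors most distant from each covariate's median were removed.

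Sgce, which encodes epsilon-sarcoglycan, and the retrotransposon-derived Peg10 are neighbors on Chr6 and known for paternal expression, from starts that lie close together on opposite strands. Sgce was between 0.605 and 5.20 CPM in Lo tumors (median 1.81) and between 0.717 and 3.56 CPM in Hi tumors (median 1.80). Lo 3 was the lowest tumor and Lo 4 the highest, as for the fibroblast genes. Peg10, at 7 to 50 counts, had a slope of 0.57 on Sgce that missed the threshold (SE 0.138, adjusted p = 0.0528 from edgeR). Their r was 0.691 (permutation p = 0.00063, rho 0.615 with permutation p = 0.00467), 0.469 without Lo 3 and Lo 4, 0.856 within Lo tumors and 0.457 within Hi tumors. Ppp1r9a, the actin-binding neurabin of the same cluster, had a slope of 0.21 (SE 0.174, adjusted p = 0.990).

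The genes nearest to Sgce in pattern were Ptprb (r = 0.868), Cd34 (0.853) and Fstl1 (0.851), the first a phosphatase of endothelial cells. With Sgce as the covariate 0.8% of all genes were called. Of 8 endothelial genes 6 were called and higher, among them Pecam1 (slope 0.31, SE 0.0449) and Tek (slope 0.36, SE 0.0740). Of 8 fibroblast genes 4 were called and higher, among them Col3a1 (slope 0.44, SE 0.0870). No gene was called with Sgce by edgeR with the fibroblast genes' mean z-score as a term, without Lo 3 and Lo 4, or within Hi tumors, and 51 genes (0.27%) were called within Lo tumors. With Peg10 0.604% of all genes were called, including 3 of 8 fibroblast genes, of which none was called without Lo 4 and Hi 2.

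Peg3 on Chr7 was between 521.0 and 716.7 CPM in Lo tumors (median 634.3) and between 465.0 and 883.0 CPM in Hi tumors (median 640.6). The neighboring zinc finger gene Zim1, at 3 to 24 counts, had a slope of -0.04 on Peg3 (SE 0.164, adjusted p = 0.926). With Peg3 as the covariate 5.79% of all genes were called. Krt8 and Krt18, keratins of luminal epithelial cells, were called and lower with Peg3, with slopes of -0.17 (SE 0.0465) and -0.21 (SE 0.0479), as 2 of 8 epithelial genes, and 2 of 5 nuclear-retained RNAs were called and higher. Dleu2 (r = 0.885), Gm26944 (0.876) and Nktr (0.859) were nearest to Peg3 in pattern.

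In the Snrpn-Ube3a cluster on Chr7, Ube3a, an E3 ubiquitin ligase gene known for maternal expression in neurons, was at 9.60 ± 1.23 RPKM (SD, n = 20). The records of Snrpn, a spliceosome protein gene, were at 8.44 ± 0.864 RPKM (ENSMUSG00000102252) and 2.25 ± 0.276 RPKM (ENSMUSG00000000948), overlap each other and a record of Snurf, and share reads in a way that was not tested. Ndn, or necdin, was at 0.899 ± 0.332 RPKM and Mkrn3, a makorin ring finger gene, at 0.421 ± 0.175 RPKM. With Ube3a as the covariate none of the 4 other tested records was called, their slopes being 0.09 (SE 0.0427) and 0.06 (SE 0.0365) for Snrpn, 0.17 (SE 0.120) for Mkrn3 and -0.01 (SE 0.127) for Ndn. The 4 records had adjusted p between 0.266 and 0.975. The genes nearest to Ube3a in pattern were Trim23 (r = 0.918), Arhgap5 (0.908) and Bmpr2 (0.892).

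The remaining clusters hold a pair of overlapping genes each. On Chr2, Mcts2, a retrogene inside H13, was between 3.15 and 7.98 CPM in Lo tumors (median 4.48) and between 3.40 and 5.88 CPM in Hi tumors (median 3.91), with a slope of 0.16 on H13 (SE 0.0765, adjusted p = 0.278). Nnat, a small proteolipid gene inside an intron of Blcap, was at 1.87 ± 0.657 RPKM (SD, n = 20) and Blcap at 8.42 ± 1.58 RPKM, with a slope of 0.03 (SE 0.0921, adjusted p = 0.936). On Chr6, Mest, a hydrolase-like gene of growing mesoderm and fat whose record overlaps that of Copg2 only at the end, was at 2.38 ± 0.804 RPKM, with a slope of 0.10 on Copg2 (SE 0.0976, adjusted p = 0.647). On Chr11, Zrsr1, a retrogene of a splicing factor gene, was at 3.68 ± 0.378 RPKM and its host Commd1, a copper metabolism gene, at 5.63 ± 0.707 RPKM, with a slope of 0.04 (SE 0.0384, adjusted p = 0.547). None of these 4 pairs was called.

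Nearest to H13 in pattern were Gm26841, a record on the other strand inside H13 (r = 0.975), and 2 other genes of Chr2, Bcl2l1 (0.907) and 1700037H04Rik (0.904). How reads were shared between Gm26841 and H13 was not tested. Nearest to Blcap were Cd97 (0.871), Tfap2c (0.855) and Zfp180 (0.843), to Copg2 Hadhb (0.849), Mettl10 (0.842) and Prps2 (0.839), and to Commd1 Coa6 (0.890), Zfp277 (0.857) and Prdx4 (0.854). Besides Gnas, Grb10 and H19, the genes without a tested neighbor were Plagl1, a zinc finger gene that restrains the cell cycle, at 1.01 ± 0.249 RPKM (SD, n = 20), Rasgrf1, a Ras exchange factor gene, at 8 to 119 counts, and Impact, an inhibitor of the kinase Gcn2, at 4.90 ± 1.202 RPKM.

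Because tumors can gain or lose whole chromosomes, each tested record was also compared with the dosage of its chromosome, the median deviation of the log2 CPM of its genes from their medians over tumors, less the same over all autosomes. In 36 such relations, whose p-values are unadjusted, the largest r was that of Mcts2 with Chr2, at 0.865 (permutation p = 3e-05, rho 0.791 with permutation p = 8e-05). It was 0.672 with the 2 tumors of most distant dosage removed, 0.915 within Lo tumors and 0.776 within Hi tumors. Next was Copg2 with Chr6, at 0.766 (permutation p = 0.00012, rho 0.785 with permutation p = 7e-05), 0.753 without the 2 farthest tumors, 0.821 within Lo tumors and 0.603 within Hi tumors. The dosage of Chr6 itself varied little, with an SD of 0.020 on the log2 scale over the tumors, against 0.087 for Chr2. Whether any tumor had gained or lost Chr6 was not tested. Copg2 is itself 1 of the genes in the Chr6 median, and Mcts2 was too low to be in that of Chr2. On Chr2, r with dosage was 0.655 for Blcap (permutation p = 0.00269, rho 0.6105 with permutation p = 0.00517). For Gnas r was 0.442 (permutation p = 0.0465), but rho was 0.283 (permutation p = 0.226). The r of Nnat was -0.16. For H13 the permutation p of r was 0.0237, but rho was 0.325 (permutation p = 0.162). With the 2 tumors of most distant dosage removed, r was 0.563 for Blcap, 0.3725 for Gnas and 0.448 for H13. Within Lo tumors r was 0.788 for Blcap, 0.736 for H13 and 0.542 for Gnas, and within Hi tumors 0.105, -0.32 and -0.12. Chr2 dosage was highest in Lo 2 (0.227), Lo 8 (0.199), Lo 11 (0.166) and Lo 1 (0.119). The part of Chr2 dosage in the pairs of Gnas with H13 and Ascl2 was not tested. On other chromosomes r was -0.54 for Meg3 with Chr12 (permutation p = 0.0125, rho -0.43 with permutation p = 0.0585). It was -0.52 for Ube3a (permutation p = 0.0193, rho -0.615 with permutation p = 0.00477) and 0.53 for Ascl2 (permutation p = 0.0209, rho 0.37 with permutation p = 0.106) with Chr7. For Grb10 with Chr11 it was -0.49 (permutation p = 0.0321, rho -0.67 with permutation p = 0.00147).

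Between clusters, 11 of the 590 pairs were called with either gene as the covariate, 9 with a positive and 2 with a negative r. The share of all gene pairs called in both directions was not computed, so this count has no background beside it. With 1 covariate the share of all genes called was up to 14.8%, with Airn. Besides Gnas and Ascl2, 4 of the 11 pairs held Airn. Impact, between 11.9 and 23.0 CPM in Lo tumors (median 16.7) and between 12.8 and 20.5 CPM in Hi tumors (median 16.6), rose by 0.23 per SD of Airn (SE 0.0381, adjusted p = 0.000432 from edgeR), with r of 0.823 (permutation p = 2e-05, rho 0.835 with permutation p = 5e-05), 0.763 without Lo 4 and Lo 11, 0.942 within Lo tumors and 0.707 within Hi tumors. Lo 4 was the lowest tumor for both. With Impact 12% of all genes were called, among them the 8 muscle genes, all lower, with slopes of -2.20 to -1.74. None of the 8 was called with Impact once the 2 tumors most distant from its median were removed, without Lo 4 and Hi 6, or within Hi tumors. Within Lo tumors 6 of the 8 were called and lower, where 847 genes (4.49%) were called in all.

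The other pairs with Airn were Kcnq1ot1 (r = 0.728, permutation p = 0.00031, rho 0.657 with permutation p = 0.00228), Peg3 (r = 0.691, permutation p = 0.00076, rho 0.776 with permutation p = 0.00012) and Commd1 (r = -0.61, permutation p = 0.0039, rho -0.62 with permutation p = 0.00396). With the 2 tumors most distant in the other gene removed, these r were 0.631, 0.566 and -0.54. Within Lo tumors they were 0.742, 0.431 and -0.49 and within Hi tumors 0.854, 0.925 and -0.84. Their adjusted p lay between 0.00342 and 0.0352. Commd1 and Kcnq1ot1 also formed a pair, with r of -0.66 (permutation p = 0.00132, rho -0.63 with permutation p = 0.00376), -0.53 without Hi 7 and Lo 4, -0.42 within Lo tumors and -0.82 within Hi tumors.

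The last pairs were Peg3 with Mkrn3 (r = 0.794, permutation p = 2e-05, rho 0.761 with permutation p = 0.00016), H13 with Gnas (r = 0.756, permutation p = 0.00011, rho 0.594 with permutation p = 0.00659), Peg10 with Rian (r = 0.742, permutation p = 0.00024, rho 0.708 with permutation p = 0.00064), and Ndn with Rian (r = 0.704, permutation p = 0.00056, rho 0.738 with permutation p = 0.00032) and with H19 (r = 0.704, permutation p = 0.00048, rho 0.689 with permutation p = 0.00121). In the same order, r without the 2 farthest tumors was 0.776, 0.564, 0.714, 0.695 and 0.636, within Lo tumors 0.733, 0.696, 0.894, 0.702 and 0.591, and within Hi tumors 0.832, 0.870, 0.582, 0.708 and 0.806. Adjusted p lay between 0.00784 and 0.0494. H13 and Gnas both lie on Chr2, whose dosage was among the highest in Lo 8 and Lo 11, the tumors left out for this pair. For H13 and Gnas, r with Chr2 dosage was 0.736 and 0.542 within Lo tumors and -0.32 and -0.12 within Hi tumors. The part of this dosage in the pair was not tested. The background shares were 0.238% of all genes with Mkrn3 and 0.741% with Ndn. With Ndn 3 of 8 fibroblast genes and 2 of 8 muscle genes were called, all higher, and none of either list without Lo 4 and Hi 6.

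Of the 11 pairs, 1 (Airn with Impact) was called in both directions with the 2 most distant tumors of each covariate removed, 1 within Lo tumors and 2 within Hi tumors. With the nuclear-retained RNA score as a term 3 were called (Gnas with Ascl2, Ndn with Rian and Peg10 with Rian), and with the muscle score 5. Without Lo 4 and Hi 6, the tumors highest in muscle genes, 5 were called. None of the 4 pairs with Airn was among the 3 called with the nuclear-retained RNA score, but their slopes differed. That of Impact on Airn was 0.39 with this term and 0.23 without it (adjusted p = 0.0921 with the term). Airn had a slope on Kcnq1ot1 of 0.05 with the term and 0.36 without it, on Peg3 of -0.14 and 0.34, and on Commd1 of -0.04 and -0.32.

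Lo and Hi tumors were compared because the sample names give this grouping. No gene of the 18883 tested (0%) was called by edgeR, DESeq2 called 1 gene (0.0053%), and 1045 genes (5.53%) had an unadjusted p under 0.05 in edgeR. No imprinted gene was called by either tool, and 2 of the 36 records had an unadjusted p under 0.05, a share of the same order as the background. Ascl2 was between 0.147 and 1.79 CPM in Lo tumors (median 0.566) and between 0.119 and 0.713 CPM in Hi tumors (median 0.440), a log2 fold change (Lo minus Hi) of 0.72 (SE 0.333, adjusted p = 0.880). Cdkn1c was between 0.904 and 2.0 CPM in Lo tumors (median 1.64) and between 0.853 and 1.72 CPM in Hi tumors (median 1.29), a log2 fold change of 0.31 (SE 0.148, adjusted p = 0.891). The groups overlapped for both genes. The median log2 fold change was 0.06 over the imprinted records and 0.00 over all genes.

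Other genes of the same biology give the setting. Of 39 further imprinted genes, 36 were found and 18 expressed, those with the widest spread being Dcn (decorin, 11.8 ± 4.27 RPKM), Pon3 (2.08 ± 0.579), Tfpi2 (1.19 ± 0.349), Qpct (1.70 ± 0.465) and Atp10a (1.43 ± 0.325), all SD with n = 20. Of 14 genes of the IGF system 11 were expressed. The binding protein gene Igfbp5 was at 789.5 ± 305.0 RPKM, Igfbp3 at 28.9 ± 9.90, Igfbp2 at 10.3 ± 4.44, Igfbp6 at 3.28 ± 1.502 and the growth factor gene Igf1 at 0.758 ± 0.260 RPKM, far above Igf2. Of 14 genes that set, read, keep or erase imprints 11 were expressed, with the widest spread in Dnmt3b (0.993 ± 0.255 RPKM), Tet1 (1.4 ± 0.222), Tet2 (4.98 ± 0.910), Uhrf1 (15.5 ± 2.92) and Zfp445 (11.3 ± 1.71). None of these genes was called between Lo and Hi tumors.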

How the data were processed

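RNA of 20 tumors was sequenced from TruSeq mRNA libraries, and the authors deposited 1 table of counts, whole numbers of reads per gene record and tumor, with no normalization. The submitters' processing notes name TopHat2 (2.0.12), featureCounts (1.4.4) and the build mm10; strand use is not given in the sources used here. From the deposited counts, RPKM was computed with the listed gene length and the total count, and log2 CPM with TMM factors and a prior count of 2.

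Tests used edgeR 4.0.16 in R 4.3.3 (quasi-likelihood, default filter on low counts, Benjamini-Hochberg adjustment over all tested genes, threshold 0.05). Lo was compared with Hi, and each tested imprinted record served as a standardized covariate for all other genes. DESeq2 1.42.0 was an alternative. Correlations had 100000 permutations, two-sided. Scripts were tested on simulated data. The limit given for counts of 0 covers counting error only.

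The imprinted genes and all gene lists were chosen with earlier results of these data known. Genes were named where they were members, the 3 genes nearest in r to the covariate of a cluster (mean CPM of at least 1), or the 5 expressed genes of widest spread in a list. Marker genes named with a covariate were those called or were chosen after their values were seen. Sequences were read from RefSeq tables by symbol.

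Alternatives were RLE size factors, no filter, tumors left out, Lo or Hi tumors alone, the ribosomal RNA locus left out, and further terms. Terms for muscle and nuclear-retained RNA, and fits leaving out the tumors with most muscle RNA, were chosen after seeing the data.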

Additional observations from a re-analysis of the deposited data

Results flagged for a closer look

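Among the 36 tested records, 2 had a Lo tumor far from the other Lo tumors by Dixon's test, where chance would give about 1.8. Kcnq1 was at 4.875 CPM in Lo 6, against 3.19 to 3.873 CPM in the other Lo tumors and 1.789 to 6.008 CPM in the Hi tumors. Cdkn1c was at 0.9036 CPM in Lo 1, against 1.514 to 2.0 CPM in the other Lo tumors and 0.8532 to 1.716 CPM in the Hi tumors. Both values lay within the range of the Hi tumors, a group of 11 that this test does not cover.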

How the results depend on the processing

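Between Lo and Hi, 1 gene was called with no filter and 1 by DESeq2, against 0 in the edgeR fit. The number of expressed imprinted genes was 19 to 29 under other definitions, against 27, and their median spread 0.330 to 0.349, against 0.344. Of the 20 neighbors within clusters, 1 was called, 0 without the 2 tumors farthest from the median, 0 in Lo tumors alone and 2 with a fibroblast term. The causes were not tested. Sample names share 9 numbers between Lo and Hi, but tumors with the same number did not deviate together (correlations of -0.42 to 0.21, 3 of 9 over 0.1), and with the replicate number as a block 0 genes were called.

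None of the slopes that changed sign was called, before or after the change. Without the 2 farthest tumors they were -0.11 for Phlda2 on Kcnq1ot1, -0.11 for Nnat on Blcap, 0.0148 for Zim1 on Peg3 and 0.0385 for Ndn on Ube3a. In Hi tumors they were 0.135 for Dlk1 on Meg3, -0.0713 for Mcts2 on H13, -0.20 for Ascl2, -0.0765 for Cdkn1c and -0.0572 for Phlda2 on Kcnq1ot1, -0.16 for Nnat and 0.12 for Zim1. In Lo tumors they were 0.0484 for Slc22a18 on Kcnq1ot1 and 0.12 for Ndn. With chromosome dosage as a term they were 0.12 for Dlk1, -0.0212 for Mcts2, -0.0492 for Ascl2 and -0.13 for Mest on Copg2, with a fibroblast term -0.0511 for Ascl2 and 0.0754 for Ndn, and with Lo or Hi as a term -0.0205 for Ascl2 and -0.0013 for Phlda2.

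The number of genes called with a covariate moved most for Meg3, from 4 to 2471 with a fibroblast term. It was 0 to 1486 for Peg3, 10 to 2297 for Kcnq1ot1, 0 to 1297 for Commd1, 0 to 969 for Ube3a, 0 to 477 for H13, 0 to 151 for Sgce, 0 to 126 for Blcap, 0 to 114 for Copg2 and 0 to 5 for Igf2r. Low counts limit Mirg, Peg10, Ascl2, Rasgrf1, Dlk1 and Zim1.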
